A study of Drosophila melanogaster with 8 samples.

Results

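The RNA of the synaptosome fraction of adult Drosophila melanogaster heads was described from the 4 synaptosome libraries of the 8 libraries of the series, the other 4 being input libraries. Members were chosen by the labelled tissue: these libraries come from the synaptic fraction, and the input libraries from the head homogenate that the fraction was prepared from. Synaptosomes are nerve terminals that pinch off and reseal when brain tissue is sheared, and they often carry a piece of the postsynaptic membrane. They hold synaptic vesicles and mitochondria, and mRNAs kept there can be translated far from the cell body. In the fly head the fraction can also hold terminals of photoreceptors, which form a large share of the head's neurons, and membranes of other cells of similar density.

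Per the labels, both groups are wild type, the synaptosome libraries are a column fraction and the input was not fractionated. Per the study's methods, 3-day-old w1118 flies were used in bulk, heads were sieved from blended whole flies and homogenized in aliquots, and the homogenates were pooled before the input was taken. Synaptosomes were taken from a pair of adjoining layers of a Percoll gradient. Each library is thus a pool of many flies of both sexes. The methods name biological replicates for the protein measured from part of such preparations, and which RNA libraries came from separate preparations is not stated. The labels describe snap-frozen flies, whereas the methods describe fresh heads that had not been frozen, and which of these holds for each library is not given in the sources used here. RNA was measured by sequencing from the poly(A) tail, so a read marks the 3′ end of a transcript and a gene's count does not grow with its length. Levels are CPM, the counts of a gene relative to all counts of its library, and they can be compared between genes as well as between libraries. All values are of this kind unless a share is named. Fewer terminals of a kind and less RNA per terminal cannot be told apart.

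In the count tables the libraries carry the numbers 1, 2 and 3, and the remaining one only the word old. The labels number the fourth sample of each group 4, and no source used here says that this is the library named old. What the word refers to is not given in the sources used here. Synaptosome 1, 2, 3 and old held 4751447, 1029666, 1367641 and 9397652 counts, so that depth differed by library as well as name, and a single count was worth 0.210, 0.971, 0.731 and 0.106 CPM. A gene without a count could still have had up to 3 counts, which is 0.631, 2.91, 2.19 and 0.319 CPM. Floors and counts here cover counting error only, since reads carried no molecular identifiers. Libraries stood apart from each other in more than one way, and values are therefore given for every library. No comparison between the fractions was tested, and input values stand beside the synaptosome values only as the background measured in the same way. Input 1, 2, 3 and old held 7940909, 9310319, 11644312 and 16865581 counts, and input was not thinned to the synaptosome depths. The part of depth in differences from input in detection, ends and spread was not tested.

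The most abundant transcripts of the fraction encode proteins of the eye, of the ribosome and of mitochondria, together with small secreted proteins. The gene with the highest mean level was Arr2 (FBgn0000121, dm6 3L 8647261 to 8648936), the major visual arrestin, which shuts off light-activated rhodopsin in photoreceptors. Arr2 reached 31019, 17896, 16240 and 77494 CPM in synaptosome 1, 2, 3 and old, a mean of 35662 ± 28661 (SD, n = 4) and of 21718 ± 8097 over the numbered libraries (n = 3). Every library held Arr2 among its 10 most abundant genes, and synaptosome old held more than the other libraries. The input libraries held 31542 ± 6307 CPM (SD, n = 4).

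CG8369 (FBgn0040532, 3R 8822008 to 8822838) came next, with 38980, 7820, 20296 and 5747 CPM in synaptosome 1, 2, 3 and old, and was the most abundant gene of synaptosome 1 and of synaptosome 3. Cpr72Ec (FBgn0036619, 3L 16365894 to 16367340), a cuticle protein of the corneal lens, was at 20392, 16522, 17769 and 3067 CPM. The numbered libraries were alike in Cpr72Ec, and synaptosome old was below each of them and inside the range of the input libraries, 2212 to 3946 CPM.

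EbpII (FBgn0011694, 2R 25173568 to 25174230), named for the ejaculatory bulb of the male, was the least even of the 25 most abundant genes. Its level was 455, 29983, 17632 and 7073 CPM in synaptosome 1, 2, 3 and old, and it was the most abundant gene of synaptosome 2. In input it ran from 586 to 4254 CPM, with input 2 the highest. EbpIII, a secreted protein of the chemosensory protein family with a related name, was far more even, at 8134, 4267, 5452 and 9764 CPM.

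Mitochondrial transcripts among the 25 were steadier. Tom7 (FBgn0033357, 2R 8951595 to 8952242), a small subunit of the import pore of the outer mitochondrial membrane, was at 12314, 11696, 10246 and 6662 CPM. ND-AGGG (FBgn0058002, 3L 24976254 to 24977118), an accessory subunit of respiratory complex I, was at 10060, 11616, 10276 and 6987 CPM. These are the sixth and the seventh gene by mean synaptosome level, and by mean input level they rank 103 and 38.

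Of the other genes among the 25, 11 encode ribosomal proteins. RpL39 (2R 24061853 to 24062431) led them with 4930, 17943, 16518 and 6393 CPM, and RpS15 was at 10135, 6860, 6899 and 3502 CPM. RpLP1, a protein of the ribosomal stalk, was the most even gene of the 25, at 4264, 4311, 4870 and 4752 CPM. The SD of log2(CPM + 1) was 0.10 for RpLP1 and 2.69 for EbpII.

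The remaining genes of the 25 were of the immune response, of sugar breakdown and of the eye. Listericin, an antibacterial peptide, was at 11333, 8873, 15117 and 841 CPM. BomS5 and BomS6, short Bomanin peptides of the humoral immune response, were at 5050, 5459, 4506 and 8823 CPM and at 7979, 4264, 3657 and 6311 CPM. Ald1, aldolase of glycolysis, was at 3485, 18688, 8708 and 3146 CPM, so that synaptosome 2 and 3 lay above every input library (4351 to 4900 CPM) and synaptosome 1 and old below.

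Arr1, the other visual arrestin, was at 5814, 4305, 3843 and 17997 CPM. It moved across the libraries as Arr2 did, highest in synaptosome old and next highest in synaptosome 1. se, an enzyme of red eye pigment synthesis, was at 8124, 4796, 7694 and 537 CPM, with 700 to 861 CPM in input. CG17108 was at 6814, 2499, 6216 and 6679 CPM, with synaptosome 2 the low library.

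**Figure D1:**
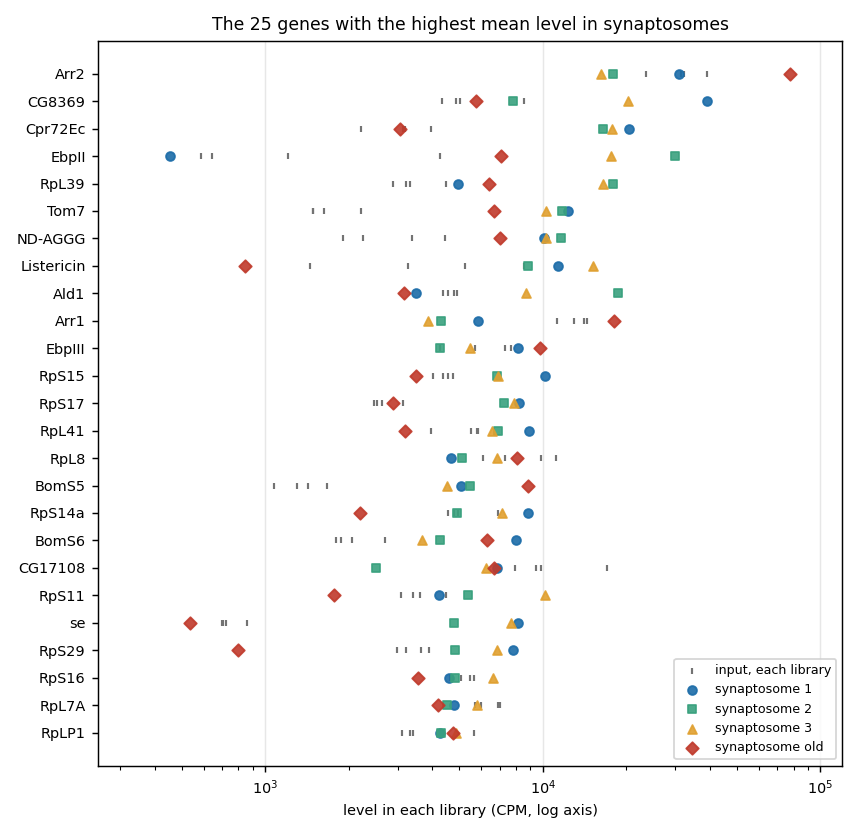
Level in CPM (log axis) of the 25 genes with the highest mean synaptosome level, with 1 coloured point for each synaptosome library and grey ticks for the 4 input libraries. Arr2 and Arr1 were highest in synaptosome old, Cpr72Ec, Listericin, se and RpS29 were lowest there, and EbpII was at 455 CPM in synaptosome 1 against 7073 CPM or more in the others.

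The libraries shared only part of their leading genes. The 10 most abundant genes took 16.02%, 14.8%, 14.3% and 15.7% of the counts of synaptosome 1, 2, 3 and old (15.2% ± 0.788, SD, n = 4), against 11.7% ± 0.776 in input. Yet only Arr2 and ND-AGGG were among the 10 in all 4 libraries, where the input libraries had 5 genes in common. Synaptosome 2 and 3 shared 9 of their 10 leading genes, and synaptosome old shared 2 or 3 with each numbered library. Of the 100 most abundant genes, 40 were common to all 4 synaptosome libraries and 66 to all 4 input libraries. To reach 50% of the counts took 116, 151, 130 and 193 genes in synaptosome 1, 2, 3 and old (147.5 ± 33.6, SD, n = 4), so that counts were the least concentrated in synaptosome old.

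By gene type, 98.4% ± 0.286 of counts (SD, n = 4) came from protein-coding genes. Small nuclear RNAs of the spliceosome took 0.472%, 0.857%, 0.862% and 0.167% in synaptosome 1, 2, 3 and old, and 0.115% ± 0.0223 in input. Nearly all of these were copies of U1 and U2, whose near-identical copies share reads, so single copies are uncertain. snRNA:U2:34ABc was the leading one, at 1484, 2531, 2586 and 563 CPM. The tRNA gene in the table, tRNA:Gly-TCC-1-2, was at 49.5, 150.5, 111.9 and 7.56 CPM. Both RNA kinds were highest in synaptosome 2 and 3 and lowest in synaptosome old. Whether these reads mark polyadenylated ends was not tested.

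Among gene families, cytosolic ribosomal proteins took the largest share of counts. Their 79 genes held 18.8%, 16.01%, 19.2% and 10.3% of the counts of synaptosome 1, 2, 3 and old, a mean of 16.1% ± 4.13 (SD, n = 4) and of 18.01% without synaptosome old. Of the 79 genes, 75 had a count in every synaptosome library and 2 in none. Synaptosome old was the lowest library by a wide margin, while in input the library named old had the highest share, 22.5% against 17.5% to 19.3%.

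Nuclear genes of oxidative phosphorylation, the respiratory chain and ATP synthase, took 7.86%, 7.45%, 5.64% and 6.19%, a mean of 6.78% ± 1.04 (SD, n = 4) over 80 genes, of which 69 were found in all 4 libraries. After ND-AGGG the highest were ATPsynC, the membrane ring of ATP synthase, at 2823, 6527, 3435 and 2505 CPM, and ND-B14.5B of complex I, at 6477, 2937, 3732 and 1425 CPM. The share of the family was even across the synaptosome libraries, and its single members were less so. In input the share was 5.15%, 5.35%, 5.10% and 10.8% in input 1, 2, 3 and old.

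Phototransduction genes took 4.43%, 2.90%, 2.75% and 10.5%, a mean of 5.14% ± 3.64 (SD, n = 4) and of 3.36% without synaptosome old. The visual arrestins alone made up 3.68%, 2.22%, 2.01% and 9.55%, so most of the family and most of its spread was these 2 genes. The next member, Ggamma30A, the gamma subunit of the visual G protein, was at 2512, 2074, 2389 and 1537 CPM and thus lowest where the arrestins were highest. The opsin genes held 0.0741%, 0.136%, 0.112% and 0.0978% of counts, with ninaE, the opsin of the outer photoreceptors, at 344, 754, 643 and 381 CPM. The opsins did not share the arrestins' excess in synaptosome old. In input, phototransduction genes held 10.2%, 7.88%, 9.09% and 7.44% in input 1, 2, 3 and old, so the library named old was lowest there.

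Immune peptide genes held 2.36%, 2.51%, 2.37% and 3.81%, and cuticle protein genes 2.42%, 2.02%, 2.07% and 0.526%. In input these shares were 1.625% to 2.239% and 0.367% to 0.569%. Cpr72Ec made up most of the cuticle share, and of the 100 genes of that family 38 had no count in any synaptosome library. Glycolysis genes held 1.06%, 2.93%, 1.67% and 1.64%, of which Ald1 in synaptosome 2 was the largest single part. Chemosensory genes, mainly odorant-binding proteins such as Obp19d (1753, 1184, 1274 and 3972 CPM), held 0.853%, 0.810%, 0.827% and 1.38%. In these 4 families the numbered libraries were close to each other except in glycolysis.

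Translation factors held 0.870% ± 0.122 (SD, n = 4), vacuolar proton pump genes 0.850% ± 0.126, proteasome genes 0.414% ± 0.0209, mitochondrial ribosomal proteins 0.387% ± 0.0877, and tubulins and cytoplasmic actins 0.161% ± 0.00622. Proteasome genes and the cytoskeletal genes were the most even families by share across the 4 libraries. Single cytoskeletal members were less even. Act5C was at 209, 749, 474 and 727 CPM in synaptosome 1, 2, 3 and old, and betaTub56D at 680, 320, 442 and 387 CPM. Heat shock proteins held 0.160% ± 0.0499, histones 0.101% ± 0.0346, long noncoding RNAs 0.139% ± 0.0427, and a list of transcription and chromatin genes 0.0549% ± 0.0110.

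Genes of the reproductive tract held 0.121%, 1.02%, 0.599% and 0.344%, most of it in the seminal fluid genes Sfp60F (68.2, 4336, 2560 and 1939 CPM), Sfp87B (371, 3657, 1639 and 235 CPM) and Acp24A4 (409, 1367, 1311 and 522 CPM). All 3 were highest in synaptosome 2, as EbpII was. In input Sfp60F was at 196, 1298, 494 and 257 CPM in input 1, 2, 3 and old, so that input 2 was the highest there as well. The genes Acp26Aa and Acp36DE of the male accessory gland and the chorion gene Cp36 had no count in any synaptosome library. Heads were sieved from blended whole flies, and the part of other body parts in these values was not tested.

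**Figure D2:**
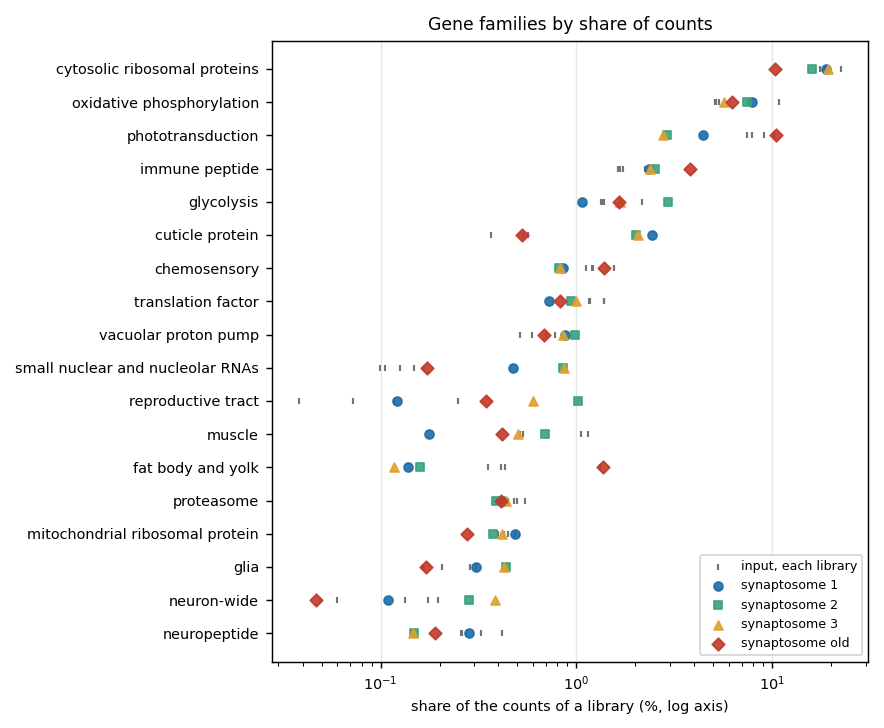
Share of the counts of each library (%, log axis) for 18 gene families, with coloured points for the 4 synaptosome libraries and grey ticks for the 4 input libraries. Ribosomal, oxidative phosphorylation and phototransduction genes led, and synaptosome old was above the numbered libraries for phototransduction and fat body genes and below them for cuticle and ribosomal protein genes.

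Transcripts of synaptic proteins were few. The 31 presynaptic genes in the table held 0.102%, 0.114%, 0.113% and 0.0665% of the counts of synaptosome 1, 2, 3 and old (0.237% ± 0.108 in input), with 19 of them found in every library. Syx1A, a SNARE of the plasma membrane in vesicle fusion, led them at 103.8, 94.2, 164.5 and 0.958 CPM. Syb, a synaptobrevin, came next at 51.6, 115.6, 54.8 and 71.6 CPM. The neuronal synaptobrevin nSyb was at 0.421, 55.4, 75.3 and 17.3 CPM, with 2 counts in synaptosome 1. shi, the dynamin of vesicle retrieval, was at 63.1, 57.3, 104.6 and 63.3 CPM. Syb and shi lay above 50 CPM in every library, and Syx1A had 9 counts in synaptosome old.

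Postsynaptic and receptor genes held 0.0465% ± 0.00299 of counts (SD, n = 4), and 8 of 30 were found in every library. The leading one, the nicotinic acetylcholine receptor subunit nAChRbeta3, was at 132, 102.9, 54.1 and 261 CPM. Neuron-wide genes held 0.110%, 0.281%, 0.385% and 0.0468%, which was mostly nrv3, a beta subunit of the neuronal sodium pump, at 541, 2100, 3220 and 305 CPM. Neuropeptide genes held 0.191% ± 0.0632, led by Nplp3 at 1763, 799, 742 and 1011 CPM. The median member had a mean of 33.7 CPM among presynaptic genes and of 6.20 CPM among postsynaptic and receptor genes.

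The labelled tissue was checked against markers of neurons and of other cells of the head and body. The 10 neuron markers summed to 327, 519, 452 and 99.8 CPM in synaptosome 1, 2, 3 and old and to 1098, 772, 999 and 184 CPM in input 1, 2, 3 and old. All 10 had a count in at least 1 synaptosome library and 7 in all 4. para, the voltage-gated sodium channel, was at 0 in synaptosome 1 and old, VAChT, the vesicular acetylcholine transporter, in synaptosome 2, and Syt1, the calcium sensor of release, in synaptosome 3. Both libraries named old had the lowest neuron sum of their group. The 10 photoreceptor markers, arrestins included, summed to between 21931 and 97475 CPM, and 9 of them were in every synaptosome library, Rh6 being at 0 in synaptosome 2.

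The 8 glia markers summed to between 1659 and 4288 CPM, all found in every synaptosome library and led by Gs2, glutamine synthetase, at 2050, 3396, 3108 and 775 CPM. Muscle markers summed to 910, 2624, 2648 and 2473 CPM and fat body markers to 1163, 1458, 988 and 12979 CPM. The muscle sum was lowest in synaptosome 1 and the fat body sum highest in synaptosome old. Hemocyte markers summed to between 10.7 and 88.7 CPM with 1 of 4 in every library, against 56.9 to 84.0 CPM in input. Epidermis and cuticle markers summed to between 166 and 446 CPM, against 45.8 to 103.7 CPM in input. Gut markers summed to between 40.2 and 239 CPM and reproductive tract markers to between 18.5 and 80.4 CPM. In input these were at 8.56 to 490 CPM and at 1.39 to 27.9 CPM. Muscle, glia and photoreceptor markers in input summed to 2798 to 7594, 1579 to 3023 and 52163 to 76006 CPM. Every synaptosome library was thus above every input library for epidermis and cuticle markers and below for muscle markers. LManVI, a gut enzyme, had no synaptosome count. The part of non-neuronal cells in the results was not tested.

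Genes found in every library were counted next. Of the 10669 genes in the table, 3888 (36.4%) had a count in all 4 synaptosome libraries, 1663 in 3, 1504 in 2, 1593 (14.9%) in 1 alone and 2021 (18.9%) in none. In input, 8244 genes (77.3%) had a count in all 4 libraries and 629 (5.90%) in 1 alone. Every input library was deeper than synaptosome 1, 2 and 3, and input was not thinned. The 3888 genes held 95.3% of the synaptosome counts on average, and the 1593 genes of 1 library 0.407%. Their median mean levels were 60.5 and 1.83 CPM in synaptosomes and 62.9 and 3.65 CPM in input, so genes of 1 library were mostly of low abundance in the head too. Still, 969 of the 1593 had a count in every input library.

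Genes of 1 library were not spread evenly over the libraries. Synaptosome old alone held 845 of them (53.04%), synaptosome 1 alone 378, and synaptosome 2 and 3 alone 184 and 186. Conversely, 650 and 664 genes lacked a count in synaptosome 2 or in synaptosome 3 alone, 272 in synaptosome 1 alone and 77 in synaptosome old alone. Synaptosome old and 1 had the most genes to themselves and the fewest absences. They also led after every library was thinned to 1029666 counts, with 808, 380, 206 and 221 genes in synaptosome old, 1, 2 and 3 alone.

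At full depth such genes were seldom single reads. Their median count was 36, 16, 18 and 47 in synaptosome 1, 2, 3 and old. Of them 303, 135, 145 and 732 (80.2%, 73.4%, 78.0% and 86.6%) had at least 10 counts. With every library thinned to the same total, the median was 9, 16, 14 and 6 in synaptosome 1, 2, 3 and old. Then 175 of 380, 153 of 206, 150 of 221 and 261 of 808 such genes had at least 10 counts. Synaptosome old thus had the highest share at full depth and the lowest at equal depth. The level of a gene of this class could be well above what the other libraries would have shown. Rgk2, a small GTPase, had 67.1 CPM in synaptosome 1, ASPP, a p53-binding protein, 75.8 CPM in synaptosome 2 and CG32452 49.0 CPM in synaptosome 3, each with no count in the other libraries. A level of 2.91 CPM, 3 counts in the shallowest library, was the highest limit for any of these absences. Copies of 1 molecule cannot be told from separate molecules without molecular identifiers, and their part in these counts was not tested.

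In synaptosome old the leading genes of this class were Muc68D, a mucin, at 104.1 CPM, CG16826 at 82.7 CPM and Nadk2, an NAD kinase, at 78.5 CPM. Muc68D and CG16826 were also highest in the input library named old, at 52.4 CPM against at most 3.78 CPM and at 193 CPM against at most 13.4 CPM. Nadk2 was even in input, at 41.1 to 49.6 CPM. Among all 845 genes, the input library named old was the highest input library for 179 (21.2%), where it was the highest for 16.8% of all genes in the table. For the genes of synaptosome 1, 2 and 3 alone, the input library of the same number was highest for 25.1%, 17.4% and 41.4%. Over all genes in the table these libraries were highest for 27.7%, 20.7% and 30.2%.

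Absence from the whole fraction was rare among abundant transcripts. The 5 genes with the highest mean input level and no synaptosome count were nur, RpS5b, CG5500, CG6729 and IntS4. nur was at 42.4, 211, 18.6 and 20.6 CPM in input 1, 2, 3 and old, RpS5b, a paralogue of RpS5a, at 27.7, 34.05, 19.3 and 75.8 CPM, and IntS4, an Integrator subunit, at 25.7 to 36.7 CPM. By mean input level these 5 ranked from 1854 to 3781.

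**Figure D3:**
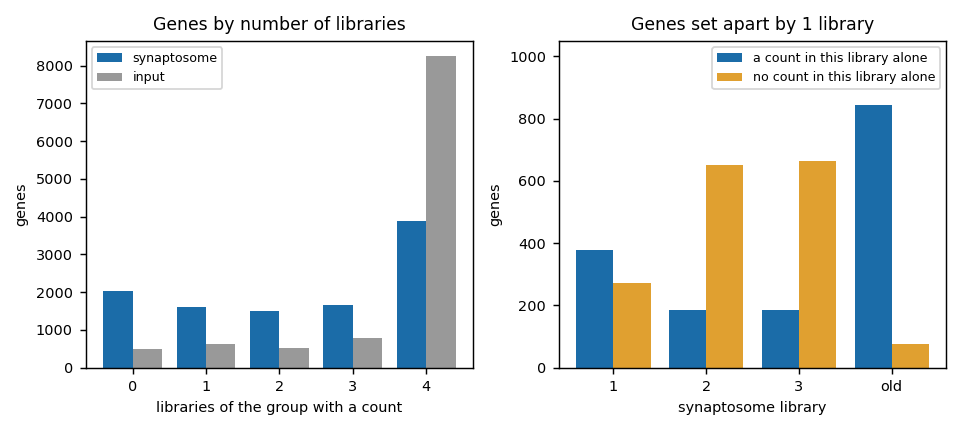
Left, number of genes by how many libraries of the group had a count, for synaptosomes (blue) and input (grey). Right, for each synaptosome library, genes with a count there alone (blue) and genes lacking a count there alone (orange). All 4 synaptosome libraries held 3888 genes, and synaptosome old had 845 genes to itself.

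Spread between the libraries was larger than in input at every level. Among 1520 genes with a mean of 50 to 200 CPM in synaptosomes, the median SD of log2(CPM + 1) was 0.91, and it was 0.70 both for 610 genes of 200 to 1000 CPM and for 171 genes above. In input the same medians were 0.42, 0.39 and 0.34. Without the libraries named old they were 0.78, 0.51 and 0.43 in synaptosomes and 0.33, 0.28 and 0.23 in input. Above 1000 CPM, all 4 libraries lay within a 2-fold range for 48 of 171 genes (28.1%) in synaptosomes and for 131 of 198 (66.2%) in input.

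The 5 steadiest genes above 200 CPM were RpS13, RpS6, bic, CG7220 and RpLP1. RpS13 (2L 8363477 to 8364662) was at 767, 811, 850 and 774 CPM in synaptosome 1, 2, 3 and old, RpS6 at 240, 226, 254 and 230 CPM, and bic, a subunit of the nascent polypeptide complex, at 411, 383, 369 and 412 CPM. CG7220 was at 263, 231, 257 and 237 CPM. For these genes the libraries were nearly equal despite the differences in depth.

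The least steady genes were far from that. Cat (3L 18822604 to 18828188), catalase, was at 0.421, 252, 299.8 and 1413 CPM, TpnC25D, a troponin C of muscle, at 0.210, 433, 1965 and 206 CPM, and Act57B, a muscle actin, at 0.421, 442, 1364 and 79.5 CPM. Pgd, 6-phosphogluconate dehydrogenase, was at 2.31, 307, 461 and 1222 CPM. Synaptosome 1 was the low library for all 4 and held 1 or 2 counts of Cat, TpnC25D and Act57B. PPO1, a prophenoloxidase of blood cells, was at 106.9, 85.5, 0 and 1392 CPM, with synaptosome 3 the low and synaptosome old the high library.

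Across the 2301 genes with a mean of at least 50 CPM over the 4 libraries, log2(CPM + 1) of synaptosome 2 and 3 correlated at r = 0.73, of synaptosome 1 with these at 0.61 and 0.60, and of synaptosome old with synaptosome 1, 2 and 3 at 0.52, 0.62 and 0.56. The median over the 6 pairs was 0.61. Input libraries correlated at 0.86 to 0.96 over the same genes. Synaptosome old correlated with the input library named old at 0.81, above its correlation with any synaptosome library and with input 1 to 3 (0.69 to 0.70). The 3 numbered synaptosome libraries correlated with the input libraries at 0.58 to 0.70. Genes are not independent replicates, and the libraries of a pair share the gene-to-gene range of levels, so these values carry no test.

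To see which library parted from the rest and in which genes, each gene of these 2301 was asked whether 1 library lay at least 4-fold above the highest or below the lowest of the other 3, after 1 CPM was added to each level. The rule treats the 4 libraries alike. Synaptosome old lay above in 61 genes, 2.65% of those examined, and below in 78, 3.39%. Synaptosome 1 lay above in 4 (0.174%) and below in 172 (7.48%). Synaptosome 2 lay above in 3 (0.13%) and below in 40 (1.74%), and synaptosome 3 above in 7 (0.304%) and below in 55 (2.39%). Numbered libraries thus parted from the rest mostly downwards, and synaptosome old in both directions. Of the 61 genes above in synaptosome old, 27 had a mean under 50 CPM over the numbered libraries and were examined only because they were high there.

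**Figure D4:**
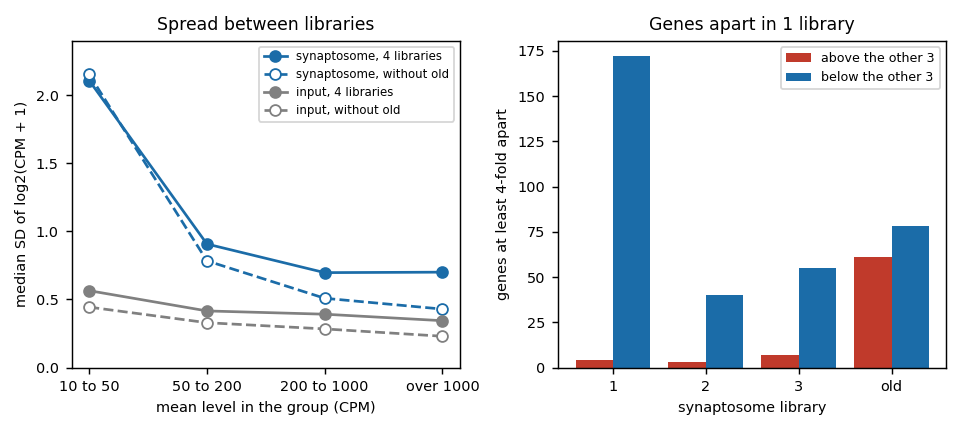
Left, median SD of log2(CPM + 1) over genes by mean level, for the 4 libraries of a group (filled) and without the library named old (open, dashed). Right, number of genes in which 1 synaptosome library lay at least 4-fold above (red) or below (blue) the other 3. The synaptosome medians were above the input medians at every level, and synaptosome 1 had 172 genes below and 4 above.

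The 172 genes of synaptosome 1 included Cat, TpnC25D and kcc, a potassium chloride cotransporter, at 0, 169, 164 and 176 CPM. Only 15 of the 172 had no count there. Among the family lists, 3 of 16 muscle genes (Act57B, TpnC41C and bt), 3 of 16 proton pump genes (Vha100-2, VhaM9.7-a and VhaPPA1-1) and 3 of 21 immune peptide genes (BomS4, BomT3 and DptB) were below in synaptosome 1, where 7.48% of all genes were. In all, 20 of the 172 (11.6%) were on a list, as were 17.9% of the 2301. Of 1443 genes with at least 50 CPM in each other synaptosome library, 53 (3.67%) had under 5 CPM in synaptosome 1, against 8 of 1342, 16 of 1367 and 4 of 1368 for synaptosome 2, 3 and old and at most 2 for any input library.

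In synaptosome 2 the largest shortfalls were in Blos2, a subunit of a lysosome biogenesis complex, at 94.9, 0, 68.7 and 70.3 CPM, CG5021 at 181, 0, 163 and 62.4 CPM, and RNaseX25, a secreted ribonuclease, at 168, 0, 136 and 57.1 CPM. In synaptosome 3 they were in PPO1, in Irp-1B, an iron regulatory protein, at 82.5, 101.0, 0 and 236 CPM, and in Arpc5, of the actin-nucleating Arp2/3 complex, at 69.9, 69.0, 0 and 68.0 CPM. Of the 55 genes below in synaptosome 3, 28 had no count there. Each of these genes was steady in the libraries that held it, within 4-fold except PPO1.

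Upward departures of the numbered libraries were few. Orcokinin, a neuropeptide precursor, was at 222, 15.5, 23.4 and 30.01 CPM and hfp, a splicing factor, at 153, 33.99, 11.7 and 35.0 CPM, both highest in synaptosome 1. Usp47, a deubiquitinase, was at 24.8, 249, 57.8 and 13.8 CPM with synaptosome 2 the high library. GstD3, a glutathione transferase, was at 5.89, 67.0, 325 and 63.7 CPM and Cbp20, of the nuclear cap-binding complex, at 14.1, 28.2, 181 and 10.9 CPM, with synaptosome 3 the high library.

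Transcripts of the fat body and of yolk stood high in synaptosome old. Yp1 (FBgn0004045, X 10053811 to 10055498), a yolk protein made by the female fat body and ovary, was at 341, 428, 287 and 5025 CPM in synaptosome 1, 2, 3 and old. Yp2 was at 423, 244, 229 and 4290 CPM and Yp3 at 7.58, 108.8, 38.8 and 1225 CPM. The nearest numbered library was 11.7-fold lower for Yp1. In all, 4 of the 7 fat body and yolk genes over 50 CPM were at least 4-fold above (Yp1, Yp2, Yp3 and Apoltp), where 2.65% of the 2301 genes were, and 6 of 7 were highest in synaptosome old, as were 33.6% of the 2301. The family's share was 0.138%, 0.159%, 0.117% and 1.36%.

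The same genes were high in the input library named old. Yp1 was at 1556, 1302, 1522 and 5546 CPM in input 1, 2, 3 and old and Yp3 at 505, 440, 564 and 3200 CPM. The share of the fat body and yolk list in input was 0.413%, 0.356%, 0.432% and 1.32%. The fat body markers summed to 3961, 3362, 4135 and 13009 CPM in input 1, 2, 3 and old. Fat body transcripts and the library name therefore moved together in both fractions. Their part in the other differences of synaptosome old was not tested.

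PPO1 was at 1392 CPM in synaptosome old against at most 106.9 CPM in the others. Drsl4, of the drosomycin family of antifungal peptides, was at 10.7, 19.4, 0.731 and 317 CPM and was over the 50 CPM mean only through synaptosome old. Of 21 immune peptide genes over 50 CPM, 3 were at least 4-fold above (BomS4, Drsl4 and Dso2), 1 was below (Dro), and 10 were highest in synaptosome old. Over all 2301 genes 2.65% were above, 3.39% below and 33.6% highest there. Of 5 hemocyte genes, PPO1 alone was 4-fold above and 3 were highest in synaptosome old, against the same shares. Another 1 of the 5 was over the 50 CPM mean only through synaptosome old. Listericin went the other way, as given above.

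The remaining genes of the 10 with the widest gaps above were of mixed kinds. whe was at 2.95, 0, 0 and 297.5 CPM in synaptosome 1, 2, 3 and old and at 46.2, 0.430, 32.3 and 979 CPM in input, and CG34220 at 0, 1.94, 0 and 221 CPM and at 0.882, 1.29, 12.1 and 147 CPM. CG16772 was at 14.1, 18.5, 26.3 and 588 CPM in synaptosomes, yet at 171.6 to 233 CPM in every input library. CG13315 (142, 99.1, 129 and 2016 CPM), Idgf5, a chitinase-like growth factor (6.95, 0, 15.4 and 226 CPM), and CG8329 (18.5, 33.0, 10.2 and 392 CPM) completed them. whe, CG34220 and Drsl4 were thus high in both libraries named old, and CG16772 in the synaptosome library alone.

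Arrestins and ribosomal proteins stood apart in synaptosome old by smaller factors. Arr2 was 2.50-fold above the nearest numbered library. Of 22 phototransduction genes over 50 CPM none was 4-fold apart in synaptosome old. There 14 were highest, as were 33.6% of the 2301 genes, and 3 lowest, as were 27.6%. Over the numbered libraries, 2 of the 22 and 183 of the 2301 had a mean under 50 CPM. Such genes were examined only because of their level in synaptosome old. Of 74 cytosolic ribosomal protein genes, 49 were lowest in synaptosome old, as were 27.6% of the 2301 genes, and 8 were highest. Among the 74, RpS29 (7816, 4805, 6830 and 799 CPM) and RpS28b (8210, 3692, 5182 and 775 CPM) were 4-fold below. Cuticle protein genes had 5 of 18 members 4-fold below (Cpr72Ec, Cpr49Ag, Cpr50Cb, Cpr49Af and Pcp), where 3.39% of the 2301 genes were, and 9 lowest.

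These counts depend on scaling, since the median gene of the 2301 was higher in synaptosome old than in the mean of the others by 0.18 on the log2 scale with library totals, by 0.35 with TMM and by 0.23 with median-of-ratios size factors. With library totals the list median was 1.07 for phototransduction genes, 2.69 for fat body and yolk genes, 0.75 for immune peptides and 0.79 for chemosensory genes, all above the median gene. It was −0.62 for cytosolic ribosomal proteins, −0.71 for cuticle proteins and −2.14 for small nuclear RNAs, all below it. The signs of these 7 lists were the same under the 3 scalings. The 61 genes above and 78 below became 77 and 62 with TMM and 66 and 68 with size factors. For translation factors the median was −0.16, −0.11 with size factors and 0.01 with TMM.

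Genes of neuronal signalling were among the widest gaps below. Syx1A (FBgn0013343, 3R 24101600 to 24105763), the syntaxin of vesicle fusion, had 0.958 CPM in synaptosome old against 94.2 CPM or more in the numbered libraries, a gap of 48.6-fold with 1 CPM added. Pka-C1, the catalytic subunit of protein kinase A, was at 19.4, 192, 84.1 and 0 CPM. IA-2 (2L 1008378 to 1048053), a phosphatase-like protein of dense-core vesicles, was at 1366, 1078, 1128 and 54.3 CPM. cac (X 11931280 to 11985087), the calcium channel of transmitter release, was at 81.2, 45.6, 89.2 and 2.23 CPM. The numbered libraries lay well above synaptosome old in each of these, by 14.4-fold or more with 1 CPM added.

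In input the library named old was also the lowest for these genes. Syx1A was at 69.9, 28.4, 80.2 and 6.70 CPM in input 1, 2, 3 and old, IA-2 at 1317, 815, 1530 and 199.5 CPM, cac at 139, 40.1, 97.0 and 16.7 CPM and Pka-C1 at 118.6, 27.3, 90.6 and 15.1 CPM. Of the 6 presynaptic genes over 50 CPM, 2 were 4-fold below in synaptosome old (Syx1A and cac), 4 were lowest there and 0 highest. Over the 2301 genes 3.39% were 4-fold below, 27.6% lowest and 33.6% highest. Presynaptic genes held 0.0982% of counts in the input library named old, against 0.206% to 0.337% in the others.

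For 3 further genes the input library named old lay inside the range of the other input libraries. CG13071 (3L 16262740 to 16263247) was at 3877, 2386, 2709 and 177 CPM in synaptosomes and at 73.1 to 108.1 CPM in input. CG30050 was at 677, 581, 594 and 33.0 CPM, with 35.5 to 50.4 CPM in input, and CG34247 at 160, 100.03, 191 and 2.98 CPM, with at most 3.76 CPM in input. CG15213 (101.7, 91.3, 53.4 and 1.28 CPM), Cpr50Cb, a cuticle protein (119, 225, 111.9 and 6.28 CPM), and zormin, a protein of the muscle Z disc (133, 67.0, 27.1 and 1.38 CPM), were the others with the widest gaps. CG13071 in synaptosome old was above its input range, CG30050 below and CG34247 inside it.

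**Figure D5:**
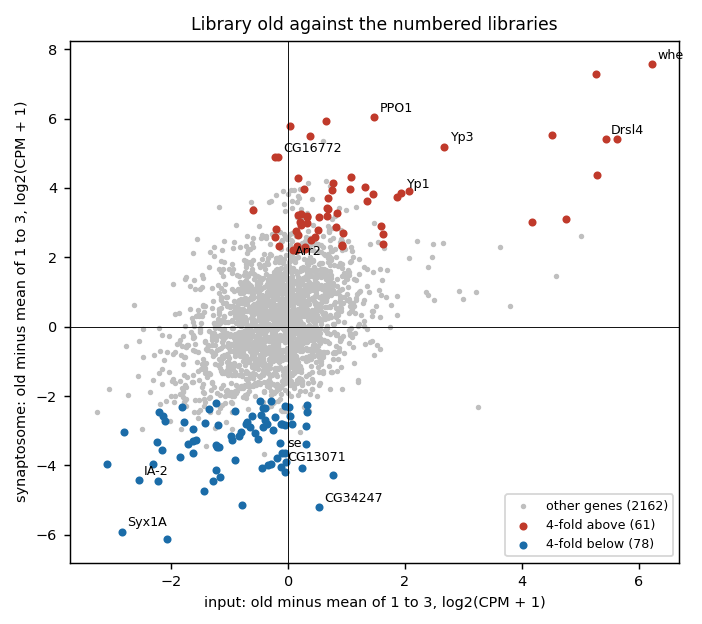
Each of the 2301 genes with a mean of at least 50 CPM in synaptosomes, by the difference between the library named old and the mean of libraries 1 to 3 in input (x axis) and in synaptosomes (y axis), both in log2(CPM + 1). Red points are the 61 genes at least 4-fold above and blue points the 78 genes at least 4-fold below in synaptosome old; whe, Drsl4 and Yp3 lie to the right, Syx1A and IA-2 to the left, and CG16772, CG13071 and se near the middle of the x axis.

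Taking all genes of each kind, the input library named old was above the other input libraries for 38 of the 61 genes (62.3%) and below them for 49 of the 78 (62.8%). Over all 2301 genes the input library named old was above for 25.3% and below for 39.2%. Of the 61 genes, 27 were examined only because they were high in synaptosome old, and the 62.3% was not computed without them. For the 172 genes below in synaptosome 1, input 1 was the lowest input library in 22 (12.8%), where it was lowest for 19.1% of all. For synaptosome 2 and 3 the matching counts were 9 of 40 (22.5%, background 27.8%) and 3 of 55 (5.45%, background 13.9%). For these genes the input library of the same number was thus the lowest no more often than over all genes. Of the 4, 3 and 7 genes above in synaptosome 1, 2 and 3, the input library of the same number was the highest in 1 each, against 26.3%, 23.9% and 24.4% over all 2301.

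The same was seen over all 1945 genes with a mean of at least 50 CPM in both groups. The deviation of synaptosome old from the other synaptosome libraries correlated with that of the input library named old from the other inputs at r = 0.41, and the deviations of libraries 1, 2 and 3 with those of the same number at −0.06, 0.09 and −0.02. Between synaptosome 3 and input 2, libraries with different numbers, it was 0.35. By Spearman's rho the pair named old was at 0.35 and the pair of synaptosome 3 and input 2 at 0.37. Deviations within a group depend on each other, so these values are a description with no test.

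Values just inside and outside the 4-fold limit were close to it. Above, the last genes inside were Apoltp at 4.05-fold and lectin-28C at 4.01-fold, and the first outside were e at 3.98-fold and CG5618 at 3.95-fold. Below, the last inside were CG33170 at 4.17-fold and CG4962 at 4.04-fold, and the first outside snRNA:U2:34ABa at 3.90-fold and CG17272 at 3.77-fold. Leaving out synaptosome 1, 2 or 3 raised the count of genes above in synaptosome old to 104, 104 and 94. Without synaptosome 1 that of genes below rose to 132. Fewer libraries then had to be passed, and the 50 CPM mean was taken over the remaining libraries, so the genes examined changed too.

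Transcripts are cleaved at different 3′ ends of a gene, and the counts were also given per end. Of 20177 ends, 4123 (20.4%) had a count in all 4 synaptosome libraries, 3778 in 1 alone and 7323 (36.3%) in none, whereas 11444 (56.7%) had a count in all 4 input libraries. Detected genes with 2 or more ends showed a mean of 1.47, 1.40, 1.40 and 1.67 ends in synaptosome 1, 2, 3 and old, and 1.97, 2.04, 2.34 and 2.22 in input 1, 2, 3 and old. A single end was seen for 62.9%, 68.3%, 68.3% and 51.1% of such genes in the synaptosome libraries. Synaptosome old showed the most ends per gene. With every synaptosome library thinned to 1029666 counts, 7843, 6864, 6776 and 9865 ends had a count in synaptosome 1, 2, 3 and old. The input libraries, all deeper than synaptosome 1, 2 and 3, were not thinned.

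The main end, the one with the most counts, could be set for 2140 genes that had 2 or more ends and at least 10 counts in every synaptosome library. It was the same in all 4 synaptosome libraries for 1517 of them (70.9%) and in all 4 input libraries for 1879 (87.8%). Where both groups were uniform, in 1459 genes, the main end was shared by all 8 libraries in 1446 (99.1%). Synaptosome 1 alone had another main end in 133 genes, synaptosome 2 in 108, synaptosome 3 in 85 and synaptosome old in 96. Synaptosome 1 had the most such genes, and synaptosome old fewer than synaptosome 1 or 2.

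With at least 100 counts in every synaptosome library, 737 genes had 2 or more ends, and their main end held a median of 96.4% of counts. Between the highest and the lowest library its share differed by a median of 7.92 percentage points, against 3.47 in input. The difference was under 10 points in 400 genes (54.3%) and 50 points or more in 53 (7.19%). Of these 53, the library farthest from the others was synaptosome 1 in 28, synaptosome old in 10, synaptosome 2 in 8 and synaptosome 3 in 7.

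The 5 genes with the widest difference were out, eEF1gamma, Synd, Hex-A and CG31717. In eEF1gamma (3R 29220172 to 29222109), a subunit of the elongation factor complex, the main of 2 ends held 2.61%, 91.6%, 86.3% and 97.1% of the gene's counts in synaptosome 1, 2, 3 and old, and 79.5% to 90.9% in input. In Synd, a membrane-bending protein of endocytosis, it held 8.90%, 91.1%, 100% and 100%, and in Hex-A, the hexokinase of glycolysis, 0%, 88.5%, 79.2% and 78.3%. The main ends of these 3 genes were nearly absent from synaptosome 1 alone, where the genes' totals were 230, 146 and 404 counts.

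In out, a transporter, the end numbered 3 of 7 held 99.3%, 0%, 0% and 51.8% in synaptosome 1, 2, 3 and old. In input 1, 2, 3 and old it held 0%, 0%, 13.1% and 0%. In CG31717 the main of 2 ends held 99.7%, 14.1%, 71.5% and 43.9% in synaptosomes, and 49.5% to 79.3% in input. These 2 genes had no single outlying library. The deposited tables number the ends without coordinates, so their places are not given.

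When the 4-fold rule was applied to the 2293 ends with a mean of at least 50 CPM, synaptosome 1 lay below in 208 ends (9.07%) and above in 5 (0.218%), and synaptosome old below in 94 (4.1%) and above in 65 (2.83%). Of the 208 ends, 48 belonged to genes that were not below as a whole, and so did 20 of the 94. Synaptosome 2 and 3 lay below in 48 (2.09%) and 51 (2.22%) ends and above in 6 (0.262%) and 7 (0.305%). In departures below, the order of the libraries was that seen for genes.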

How the data were processed

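Members were the 4 synaptosome libraries, taken from the labelled tissue. Columns of libraries 1 to 3 matched a sample title. The column named old matched the group but no single title and was used as a library of the group without a number, although the fourth title of each group has one. Members, gene lists and markers were chosen with earlier results of these data known.

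The authors' upstream steps, taken from the paper's methods and the labels' tool lists, were trimming by fastp, alignment to the dm6 assembly by STAR (version 2.6.1b), removal of internally primed peaks, and joining of peaks into 3′ ends of genes. The deposited values were raw counts, 1 table for 10669 genes and 1 for 20177 ends, with no normalization. Masking and the match to known ends remove other ends. The authors' DESeq tables, which hold fold changes and p-values, and the list of known ends were not used. Labels and methods differ in the amount of RNA per library and in freezing.

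Levels were CPM of library totals (1029666 to 9397652 counts). Symbols and coordinates came from an Ensembl annotation of the same assembly, and 82 identifiers had no symbol. Python 3.11.15, pandas 2.3.3, numpy 2.4.6, R 4.3.3, edgeR 4.0.16 (TMM) and DESeq2 1.42.0 (size factors) were used. No test between groups was run, and Dixon's ratio was used only to pick out outlying libraries. The 4-fold rule used a mean of at least 50 CPM and an offset of 1 CPM. It was run on simulated counts with counting error only and changes planted in 1 library. Those counts had no other spread between libraries, so they cannot show how the rule behaves with the spread seen here. Named genes were the 25 with the highest mean, the 10 widest gaps of synaptosome old and 3 of each other library in each direction, the 3 highest genes of 1 library alone, the 5 most and least even genes over 200 CPM, the 5 highest input genes without a synaptosome count, the 3 highest of each list, all markers, and the 5 genes with the widest spread of the main end. Alternatives were other scalings, filters, offsets, folds, minimum counts, thinning and leaving out each library.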

Additional observations from a re-analysis of the deposited data

Results flagged for a closer look

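In 69 values, namely measures of the libraries, family shares, marker sums and the 25 most abundant genes, each synaptosome library was compared with the other 3 by Dixon's ratio at its 95% limit for 4 samples. Of these, 8 (11.6%) passed, 6 of them through synaptosome old. Chance passes about 1 in 20 separate sets. The 69 values overlap, since shares, marker sums and single genes have members in common, so the 8 cannot be set against that rate. The named genes chosen by their gaps were not put through this comparison, since the choice fixes its outcome.

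Synaptosome old was far above the others in the share of fat body and yolk genes (1.36% against 0.117% to 0.159%), of hemocyte genes (0.198% against 0.0219% to 0.0409%), of chemosensory genes (1.38% against 0.810% to 0.853%) and of immune peptide genes (3.81% against 2.36% to 2.51%). Most of its hemocyte share was PPO1, at 1392 CPM, the only 1 of 5 hemocyte genes over 50 CPM that was 4-fold above in synaptosome old. Synaptosome old was also far above in the summed level of fat body markers (12979 CPM against 988 to 1458 CPM) and in Arr1 (17997 CPM against 3843 to 5814 CPM). Synaptosome 1 was far below in the summed level of muscle markers (910 CPM against 2473 to 2648 CPM). Synaptosome 2 was far below in CG17108 (2499 CPM against 6216 to 6814 CPM).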

How the results depend on the processing

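No paired analysis was run, since the results come from no test. Which libraries share a preparation is not given in the sources used here. Under the alternatives run for each, the counts of genes found in all 4 libraries or in 1 moved by less than 1.5 times. So did those of 3′ ends found in all 4 and of genes with 1 main end. The shares of the 10 leading genes and of ribosomal, oxidative phosphorylation and phototransduction genes moved by less than 1 SD. Leaving out 1 of 4 values cannot move their mean by 1 SD, so for the shares those runs say nothing about stability. The phototransduction share was 3.36% without synaptosome old and 5.14% with it. The median correlation of 0.61 was 0.74 with no filter. Counts of genes apart in synaptosome old followed the limits chosen. Above, 61 became 260 at 2-fold, 15 at 8-fold, 138 at a mean of 10 CPM, 29 at 200 CPM and 793 with no filter. Below, 78 became 239, 25, 196, 25 and 209. Without 1 numbered library they ran from 94 to 104 above and from 93 to 132 below. TMM gave 77 above and 62 below, and 61 and 62 of the reported genes were among them. Size factors gave 66 and 68, an offset of 5 CPM 56 and 65, and thinning 60 and 79. The 172 genes below in synaptosome 1, with alternatives chosen after seeing the data, became 42 at a mean of 200 CPM and stayed between 137 and 202 otherwise. Depth limits the shallow libraries, where 3 counts are 2.91 CPM in synaptosome 2 and 2.19 CPM in synaptosome 3.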
